A study of Mus musculus with 8 samples.

Results

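Respiratory complex I is the largest enzyme of the mitochondrial respiratory chain, and the genes described here are the 48 rows of the authors' deposited table whose symbol begins with Nduf, of 26229 rows in all. Symbols that contain -ps in the table, the mark of a pseudogene, were left out by this rule, which removed 1 row. The 48 genes were 7 core subunits, 8 assembly factors, whose symbols begin with Ndufaf, and 33 other rows counted as accessory subunits. The accessory class held 29 subunits of the complex together with Ndufa4, which structural work places with complex IV, and Ndufa4l2. It also held Ndufs6b and Ndufb4c, which are annotated as processed pseudogenes. All 48 carried an adjusted p. With the core subunits, 36 structural subunits of the enzyme were represented. The remaining nuclear-encoded subunit, Ndufb1, was not analysed here.

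The study profiled polyadenylated RNA from cortical neurons of mouse embryos (E16.5), grown as primary cultures for 12 days. The tested neurons carried the H2BE-KO/mCherry-KI genotype (KO, 4 libraries), in which the histone variant gene for H2BE is disrupted and mCherry, a red fluorescent protein, is knocked in. Wild-type neurons (WT, 4 libraries) were the comparison, and no strain, sex or treatment is given in the sources used here. The labels call the libraries biological replicates without saying which embryos or litters they came from.

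Complex I takes electrons from NADH, passes them along a chain of iron-sulfur clusters to ubiquinone, and pumps protons across the inner membrane. Its hydrophilic matrix arm holds the redox centres and its membrane arm holds the proton channels. The 7 hydrophobic core subunits of the membrane arm are encoded by mitochondrial DNA, and every other subunit is encoded in the nucleus and imported. Assembly factors build modules of the enzyme and leave before it is finished. Neurons rely on the complex for much of the ATP that ion pumping consumes.

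The authors' deposited table holds, for each gene, a mean normalized count over the 8 libraries, a log2 fold change, its standard error (SE) and DESeq2 p-values, with no value for a single library. Normalized counts scale each library for its depth. The header names no direction. The targeted gene, H2bc21 (ENSMUSG00000068854, chromosome 3, 96221119 to 96223738, plus strand, mm10), therefore set the sign: its values were read as lower in KO, and every fold change below is KO over WT. On that reading H2bc21 was at -3.45 (SE 0.19, DESeq2 adjusted p = 4.49e-68 in the authors' deposited table), or 9.12% of its WT level. If the sign were the other way, every rise and fall below would change places. Levels given for KO and WT separately are implied values, worked out from the mean normalized count and the fold change for 4 libraries in each group. Called means an adjusted p under 0.05.

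Most complex I transcripts were lower in KO neurons, and none passed the test as higher. The authors' deposited table had 27 of the 48 genes lower, 0 higher and 21 not called, against a background of 10.9% of all 18085 tested genes lower in KO, 11.0% higher and 21.8% called in either direction. Without adjustment, 35 of the 48 had a p under 0.05, of which 34 lay below 0 and 1, Ndufs5, above. The fold change was below 0 for 45 of 48 genes, with a median of -0.52, so that the median gene stood at 69.7% of its WT level in KO. Over all tested genes the median was -0.02 and 52.2% were below 0. Summed over the 48 genes, the implied mean normalized counts were 113152 in KO and 172607 in WT, or 65.6% of WT.

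The changes were moderate in size. The largest called change was -0.96 for Ndufa2, at 51.5% of WT, the median over the called genes was -0.53, and no called gene reached a log2 change of 1. The gene with the smallest p, Ndufa9, ranked 267 among all tested genes. The genes above 0 were Ndufs5, Ndufb4c and Ndufaf7, and none of them was called. When the same statistics were read against a t distribution with 6 degrees of freedom, 0 of the 48 genes passed, while 1 gene passed in the whole table. Against a normal null widened to the spread of all Wald scores, again 0 of the 48 passed, while 70 genes passed in the whole table. The bulk RNA of these cultures cannot tell fewer cells of a type from less RNA per cell.

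**Figure D1:**
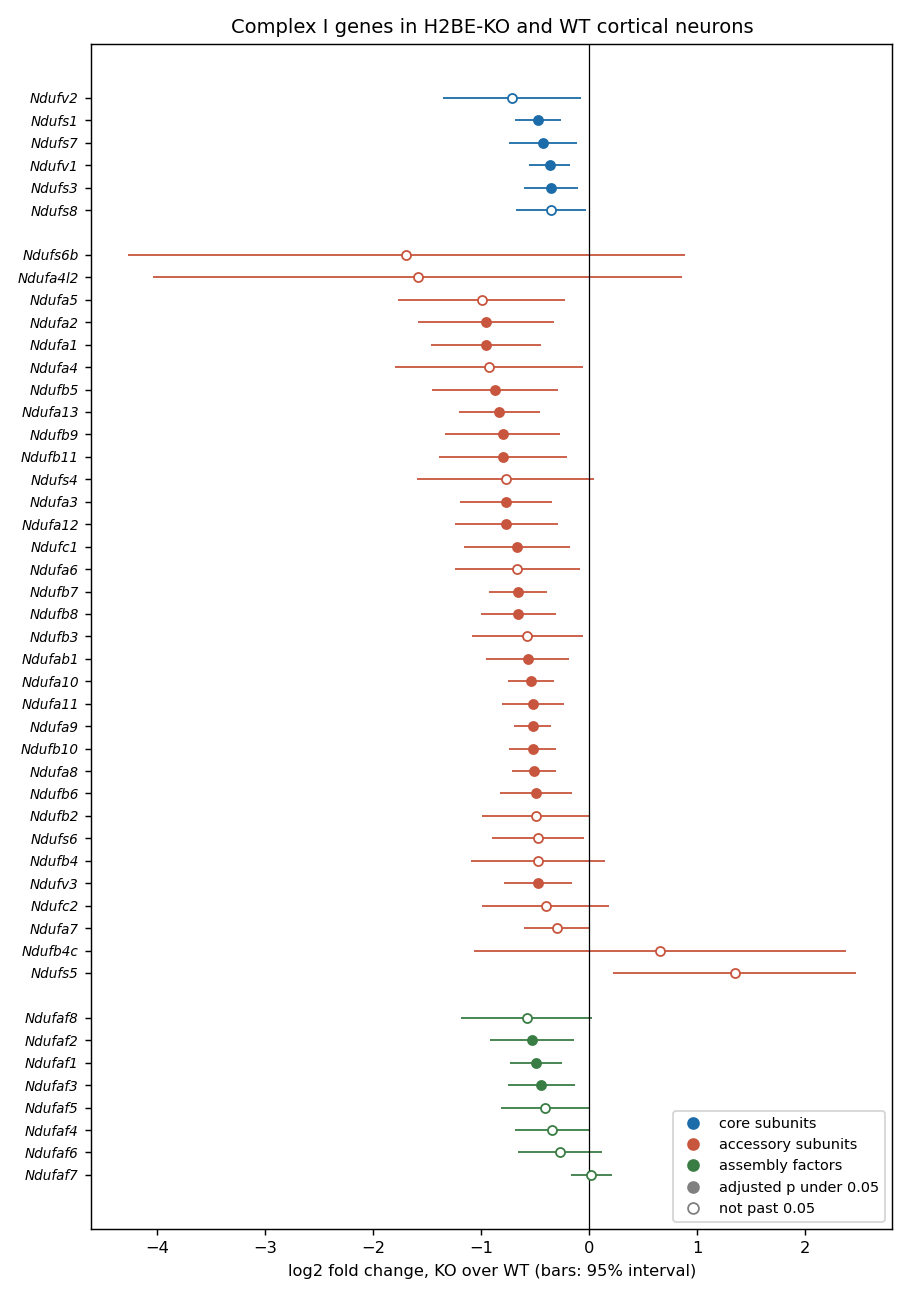
Log2 fold change, KO over WT, of 47 of the 48 genes, from the authors' deposited table, with bars for the 95% interval; core subunits stand at the top, accessory subunits in the middle and assembly factors at the bottom. Filled points have an adjusted p under 0.05: all of them lie left of 0, and of the 3 points to the right of 0 none is filled.

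The core subunits carry the flavin and the iron-sulfur clusters or line the ubiquinone site. Of these, 5 of 7 fell in the authors' deposited table, 0 rose, and all 7 lay below 0, with a median of -0.37 (77.6% of WT). Ndufs1, the iron-sulfur protein that is the largest subunit, had an implied level of 5212 in KO and 7227 in WT, and changed by -0.47 (SE 0.11, DESeq2 adjusted p = 2.67e-04). Ndufv1, which binds NADH and the flavin, had 4627 in KO and 5965 in WT, and changed by -0.37 (SE 0.10, adjusted p = 0.00225). Both transcripts were abundant and had small errors.

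Other core genes had smaller counts or larger errors. Ndufs3, part of the module next to ubiquinone, was at -0.35 (SE 0.13, adjusted p = 0.0312), with implied levels of 2009 in KO and 2568 in WT. A processed pseudogene row 98.6% identical to its coding sequence, Gm12251, makes the counts of Ndufs3 uncertain, although that row averaged 9.14 normalized counts. Ndufs7, which holds the last iron-sulfur cluster before ubiquinone, was at -0.43 (SE 0.16, adjusted p = 0.0367), with 1527 in KO and 2056 in WT. Ndufs8, a carrier of further iron-sulfur clusters, was at -0.35 (SE 0.17) and was not called (adjusted p = 0.115). Ndufv2, an iron-sulfur protein beside Ndufv1, had the largest difference of the class, -0.71, with 5025 in KO and 8233 in WT, but its SE was 0.32 and it was not called (adjusted p = 0.101). Its value in the authors' deposited table had a 95% interval from -1.35 to -0.08, which spans the fold changes of all the other core genes.

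Accessory subunits surround the core and are needed for its assembly and stability. Among the 33, 19 fell in the authors' deposited table, 0 rose and 31 lay below 0, with a median of -0.65 (63.5% of WT). Over the 29 that are subunits of the complex, 19 fell and the median was -0.57. All 19 called accessory genes were of this kind. Ndufa9, an NADPH-binding protein at the junction of the arms, had the smallest adjusted p of all 48 genes: its implied level was 3458 in KO and 4960 in WT, a change of -0.52 (SE 0.09, adjusted p = 1.69e-07). Ndufa10, related to nucleoside kinases, had 4992 in KO and 7268 in WT, a change of -0.54 (SE 0.11, adjusted p = 1.71e-05).

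Further accessory genes of the membrane arm had changes and errors of similar size. Ndufa8, an intermembrane-space subunit, had 3031 in KO and 4316 in WT, a change of -0.51 (SE 0.10, adjusted p = 2.54e-05 in the authors' deposited table). Ndufb7, on the same face of the membrane, had 1784 in KO and 2820 in WT, a change of -0.66 (SE 0.14, adjusted p = 3.09e-05). Ndufb10 had 2684 in KO and 3849 in WT, a change of -0.52 (SE 0.11, adjusted p = 5.89e-05). The Ndufb proteins build the distal part of the membrane arm.

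The largest called changes were in the small accessory subunits Ndufa2 and Ndufa1, followed by Ndufb5 and then Ndufa13. Ndufa2, a matrix-arm protein with a thioredoxin-like fold, was at -0.96 (SE 0.32, adjusted p = 0.0177 in the authors' deposited table), with implied levels of 1887 in KO and 3663 in WT. Ndufa1, a single-span protein of the membrane arm encoded on the X chromosome, was at -0.95 (SE 0.26, adjusted p = 0.00266), with 1682 in KO and 3257 in WT. Both stood at just over 51% of their WT level, at 51.5% and 51.6%. Ndufa13, also known as GRIM-19, was at -0.83 (SE 0.19, adjusted p = 2.04e-04), with 2878 in KO and 5117 in WT. The other 11 called accessory genes ranged from -0.87 for Ndufb5 to -0.47 for Ndufv3. They were Ndufa3, Ndufa11, Ndufa12, Ndufb5, Ndufb6, Ndufb8, Ndufb9, Ndufb11, Ndufc1, Ndufv3 and Ndufab1, the mitochondrial acyl carrier protein, and their adjusted p lay between 0.00249 and 0.0413.

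Several uncalled accessory genes had changes as large with wider errors. Ndufa5, a matrix-arm subunit, was at -0.99 (SE 0.39, adjusted p = 0.0531 in the authors' deposited table), with 2332 in KO and 4643 in WT. Ndufa4 had the highest mean normalized count of the 48, 15885, and was at -0.93 (SE 0.44, adjusted p = 0.121), with 10935 in KO and 20835 in WT. Ndufs4, whose loss in mice is a model of Leigh syndrome, was at -0.77 (SE 0.42, adjusted p = 0.181), with 3470 in KO and 5924 in WT. The 95% intervals of Ndufa5 and Ndufa4 lay below 0, and that of Ndufs4 ran from -1.59 to 0.05. The most negative fold changes of all belonged to Ndufs6b at -1.69 (SE 1.32) and Ndufa4l2 at -1.59 (SE 1.25), which averaged 4.23 and 4.71 normalized counts and are too shallow to read. Ndufb4c, at 5.14 counts, was at 0.65 (SE 0.88).

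Called genes lay in both arms of the enzyme. Of the 16 subunits placed in the matrix arm, core genes included, 9 fell in the authors' deposited table, with a median of -0.47. Of the 19 nuclear-encoded subunits of the membrane arm 14 fell, with a median of -0.57 and 18 below 0. Within the matrix arm, 4 of 9 accessory genes fell, with a median of -0.66. The 14 Ndufa genes had 9 falls and a median of -0.77, and the 11 Ndufb genes had 7 falls and a median of -0.57. These numbers include Ndufa4 and the shallow rows Ndufa4l2 and Ndufb4c, which were placed in neither arm. No difference between these classes was tested.

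The assembly factors were described as a class of their own, and no difference between them and the subunits was tested. The authors' deposited table had 3 of 8 lower, 0 higher and 7 below 0, with a median of -0.42 (74.5% of WT). Ndufaf1, part of the complex that assembles the membrane arm around its mitochondrially encoded subunits, was at -0.49 (SE 0.12, adjusted p = 7.10e-04), with 718 in KO and 1009 in WT. Ndufaf3, which acts on the ubiquinone-binding module, was at -0.44 (SE 0.16, adjusted p = 0.0267), with 954 in KO and 1296 in WT. Ndufaf2, a relative of Ndufa12 that holds its place late in assembly, was at -0.53 (SE 0.20, adjusted p = 0.0392), with 647 in KO and 934 in WT.

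The 5 assembly factors that were not called ran from -0.58 to 0.02. Ndufaf8, a partner of Ndufaf5, was at -0.58 (SE 0.31, adjusted p = 0.177 in the authors' deposited table), and at 164 normalized counts it was the shallowest of the class. Ndufaf5, which hydroxylates an arginine of Ndufs7, was at -0.41 (adjusted p = 0.155). Ndufaf4, the partner of Ndufaf3, was at -0.34 (adjusted p = 0.156), and Ndufaf6 was at -0.27 (adjusted p = 0.358). Ndufaf7, a methyltransferase, had the fold change nearest 0 of the 48: its implied level was 1426 in KO and 1406 in WT, with a fold change of 0.02 (SE 0.10, adjusted p = 0.910) and a 95% interval from -0.17 to 0.21. That interval lies above the fold changes of all 7 core genes.

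Complex I also needs assembly proteins that do not carry the Nduf name, and 13 of these were measured. Among them 2 fell in the authors' deposited table (15.4%, against 10.9% of all tested genes), 0 rose and the median was -0.23. Foxred1, which acts late in assembly, was at -0.35 (SE 0.11, adjusted p = 0.00939), and Timmdc1, a membrane-arm factor, was at -0.36 (SE 0.14, adjusted p = 0.0452). Of the proteins that work with Ndufaf1, Acad9 was at -0.05, Ecsit at 0.03 and Tmem186 at -0.01, whereas Tmem126b was at -0.55 (SE 0.22) and just missed the threshold (adjusted p = 0.0629). The 7 core subunits encoded by mitochondrial DNA all lay below 0, with a median of -0.88 and a range from -1.11 for ND6 to -0.41 for ND4L. ND4L and ND3, which had the smallest falls, averaged 18.4 and 157 normalized counts, against 78481 to 282525 for the others. None of the 7 was called, since their SE ran from 0.51 to 0.58, and 2 had an unadjusted p under 0.05.

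**Figure D2:**
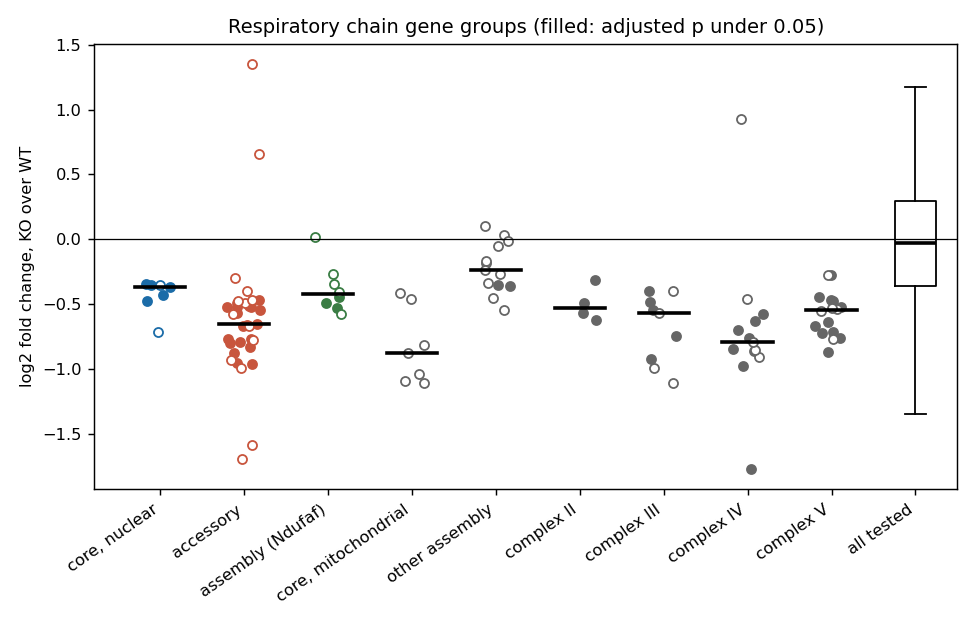
Log2 fold change, KO over WT, of each gene in 9 groups of respiratory chain and assembly genes. Black bars are group medians, and filled points have an adjusted p under 0.05. The box at the right shows all tested genes (box: quartiles, line: median, whiskers: an inner range that leaves out the extreme values). Every subunit group has its median below that of all tested genes, and no filled point lies above 0.

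The other respiratory complexes give the setting of these values. All 4 complex II genes fell in the authors' deposited table, with a median of -0.53. So did 5 of 9 complex III genes with a median of -0.57, 8 of 13 tested complex IV genes with -0.79, and 11 of 16 complex V genes with -0.54. None of these genes rose. The complex I median of -0.52 was thus close to that of complexes II, III and V in size, and no difference between the complexes was tested.

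Regulators of nuclear-encoded respiratory genes did not move together. Ppargc1a, a coactivator of mitochondrial biogenesis, was at -0.91 (SE 0.16, adjusted p = 1.04e-06 in the authors' deposited table), with an implied level of 2110 in KO and 3972 in WT. Esrra, a nuclear receptor that works with it, was at -0.59 (SE 0.18, adjusted p = 0.00700), with 856 in KO and 1289 in WT. Yy1, a zinc-finger factor with sites in many respiratory gene promoters, rose by 0.35 (SE 0.11, adjusted p = 0.00932), with 1476 in KO and 1155 in WT. Nrf1, the nuclear respiratory factor, was at 0.00 (SE 0.11, adjusted p = 0.986), and Gabpa, the DNA-binding subunit of the other such factor, was at 0.33 (SE 0.14, adjusted p = 0.0809). Of the 10 regulators listed, 2 fell, 1 rose and 7 were not called. Among all tested genes 10.9% fell and 11.0% rose.

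Ndufs5 had the highest fold change of the 48, against the common direction. This intermembrane-space subunit, encoded on chromosome 4, had an implied level of 1353 in KO and 531 in WT and a fold change of 1.35 (SE 0.57, 95% interval 0.23 to 2.47) in the authors' deposited table, and it was not called (adjusted p = 0.0740). A processed pseudogene, BC002163 (chromosome 16, 42955631 to 42955949, plus strand, mm10), copies its coding sequence: 316 of 318 bases are identical. The differences are T81C and A105G, with the base of Ndufs5 first, the position counted from the A of its start codon, and the base of BC002163 last. The stretch from position 61 to 125 is shown because it holds both of the bases (in capitals) by which a read from the coding sequence can be placed, in GENCODE transcripts of GRCm38.
Ndufs5: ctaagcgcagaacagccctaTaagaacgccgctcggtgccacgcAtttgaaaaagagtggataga
BC002163: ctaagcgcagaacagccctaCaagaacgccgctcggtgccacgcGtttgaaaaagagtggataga

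BC002163 had an implied level of 20.5 in KO and 988 in WT, a change of -5.59 (SE 0.40, adjusted p = 5.89e-40 in the authors' deposited table), and it ranked 2 by p among all tested genes. The sum of Ndufs5 and its copy was 1374 in KO and 1519 in WT, or 90.4% of WT, a log2 ratio of -0.15 that carries no error. The copy made up 1.49% of this sum in KO and 65.0% in WT. How reads were split between the 2 rows is not shown in the table, and its part in the Ndufs5 value was not tested.

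**Figure D3:**
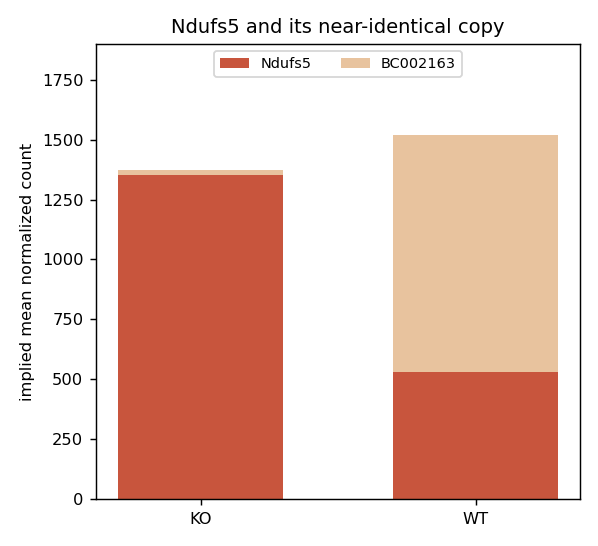
Implied mean normalized count of Ndufs5 and of its processed pseudogene BC002163 in KO and WT, stacked, from the authors' deposited table; no error can be given because single libraries are not in the table. The sums are 1374 in KO and 1519 in WT, with 20.5 counts of the copy in KO and 988 in WT.

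Other members had copies too. For 13 of the 48 genes the table has a row at least 90% identical over at least 80% of the coding sequence, and the counts of these genes are uncertain. Not all of these rows held many counts: the copies of Ndufa4, Ndufa11, Ndufb2 and Ndufb7 averaged 0.19 to 0.76 normalized counts. For the pseudogenes Ndufb4c and Ndufs6b, the matching rows are Ndufb4 and Ndufs6. Ndufa12 had Gm15920, named Ndufa12-ps in the table, at 99.5% identity and 206 normalized counts, with a change of -0.89 (SE 0.34, adjusted p = 0.0432 in the authors' deposited table), beside -0.77 (SE 0.24, adjusted p = 0.0110) for Ndufa12 itself. Ndufab1 had Gm4459 at 99.8% identity, with 12.2 counts and a change of -1.81 (SE 0.61), beside -0.57 (SE 0.19) for Ndufab1. Ndufb4 and the pseudogene Ndufb4c are identical over the coding sequence. Without all 13 genes, 21 of the remaining genes fell and 0 rose. An opposite-strand gene overlaps 18 of the 46 protein-coding members, and whether strand was used in counting is not given in the sources used here. Of these 18 genes 14 fell, with a median of -0.53, and of the other 28 genes 13 fell, with a median of -0.52. The share of falls among all genes with such an overlap was not worked out, and the part of overlap was not tested.

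Levels between genes were compared as mean normalized count per kilobase of the principal transcript, for the 45 genes with at least 100 counts. Accessory genes had a median of 3826 per kilobase, core genes 2337 and assembly factors 676. All 8 assembly factors, at 210 to 1499 per kilobase, lay below all 7 core genes, the lowest of which was at 1822. Ndufa4 was highest at 26041 per kilobase, followed by Ndufb9 at 7520, Ndufa7 at 6370 and Ndufa3 at 6048. The per-kilobase values of Ndufb2 (338) and Ndufab1 (360) rest on unusually long principal transcripts of 4371 and 3479 bases.

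**Figure D4:**
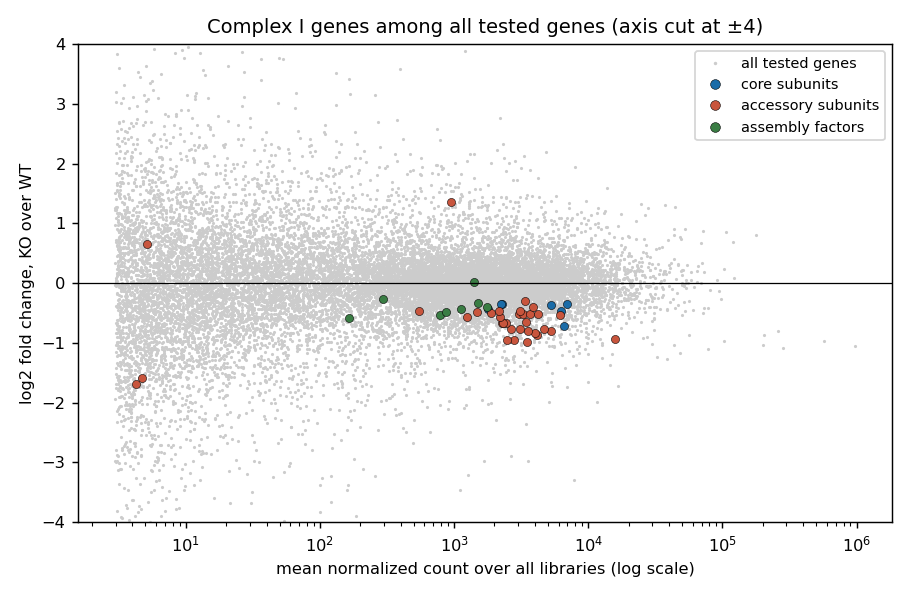
Log2 fold change, KO over WT, against mean normalized count over all libraries (log axis) for all tested genes (grey) and the 48 complex I genes (colours by class), from the authors' deposited table; grey points beyond ±4 are not drawn. Nearly all complex I genes above 100 counts form a band below 0, and the 3 genes under 10 counts are scattered.

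Signed fold change and error were linked among these genes. Over the 45 genes with at least 100 counts, Spearman's rho between SE and signed fold change was -0.50. Over 11507 tested genes of that level it was -0.07. Nearly all of the 45 genes lie below 0, whereas the tested genes lie on both sides of it. The rho values therefore cannot show whether a link of error with size is particular to complex I. They are descriptions across genes that share the same 8 libraries. Above 1000 normalized counts, the median SE was 0.19 for 39 complex I genes and 0.13 for all 6808 tested genes. An SE above 0.25 was found for 13 of the 39 genes, and for 7.80% of all genes of that level. In the same range 25 of the 39 genes fell, against 15.0% of all genes.

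The uncalled genes leaned the same way as the called ones. Of the 18 uncalled genes with at least 100 counts, 16 lay below 0, with a median of -0.47 and a median SE of 0.28, while the called genes had a median of -0.53 and a median SE of 0.16. For 7 uncalled genes the 95% interval lay wholly below 0. A gene missing from the called list is thus not shown to be unchanged.

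**Figure D5:**
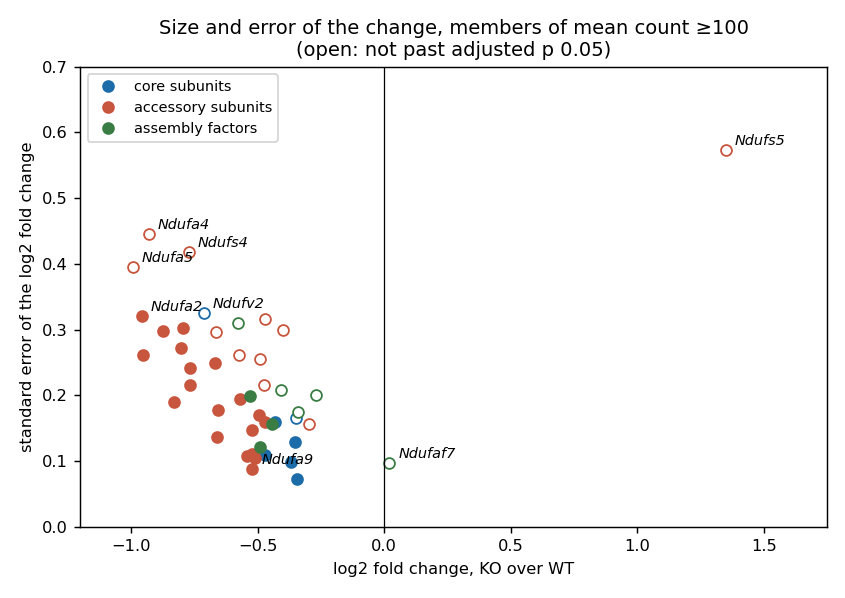
Standard error of the log2 fold change against the log2 fold change, KO over WT, for the 45 complex I genes with at least 100 mean normalized counts, from the authors' deposited table; open points were not past an adjusted p of 0.05. The 4 most negative genes, Ndufa5, Ndufa2, Ndufa1 and Ndufa4, have larger errors than Ndufa9, and Ndufs5 lies alone at the right with the largest error, 0.57.

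Transcript length moved with the result in the whole table. Among protein-coding genes with at least 100 counts, the median fold change was -0.42 for 208 genes with a principal transcript under 750 bases, -0.21 for 1179 genes of 750 to 1500 bases, and 0.02 for 9783 longer genes. Complex I genes had medians of -0.59 (16 genes), -0.52 (18 genes) and -0.47 (11 genes) in the same classes. In the authors' deposited table the share that fell was 62.5%, 61.1% and 54.5% of the complex I genes, against 23.6%, 20.4% and 13.3% of all genes of those lengths. A correction for exon length and GC content was also fitted over all tested genes. Its length was that of all annotated exons of a gene joined, not that of the principal transcript. For Ndufb7, for instance, these were 4522 and 623 bases, and its value went from -0.66 to -0.68. With the dependence on exon length and on GC content taken out, the median of the 48 genes was -0.41 and 45 lay below 0. This moved 13 of the 48 values by over 1.5 times, 4 of them of called genes: Ndufa8 came to -0.28, Ndufb6 to -0.22, Ndufb10 to -0.32 and Ndufaf1 to -0.29. The part of length in the remaining difference was not tested.

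Some markers of cell types changed beside the complex I genes. Of 12 interneuron markers 5 fell in the authors' deposited table, with a median of -0.91, among them Gad1 at -1.02 and Npy at -2.89. Of the 7 that were not called, Vip at 1.56 and Calb2 at 0.79 lay above 0, and the abundant Sst was at -0.28. The summed implied level of the 12 was 56176 in KO and 104116 in WT, or 54.0% of WT. All 5 markers of immature neurons rose, with changes from 1.06 to 1.90. Of 6 general neuron markers 2 rose, and their median was 0.12, with sums of 307321 in KO and 285237 in WT. Of 8 astrocyte markers 2 rose and all lay above 0, with sums of 20493 in KO and 10531 in WT. Of 7 tested microglial markers 4 fell, with sums of 214 in KO and 960 in WT. Of 6 tested oligodendrocyte markers 1 rose, of 5 endothelial markers 1 fell, and of 5 fibroblast markers 1 rose. Among all tested genes 21.8% were called in either direction, so 1 call does not set such a small group apart. The endothelial call, Cldn5, averaged 3.001 normalized counts with an SE of 1.74 and is too shallow to read. The part of the marker differences in the complex I result was not tested.

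The promoters of the complex I genes were searched for words bound by the factors above, in RefSeq sequence of GRCm38.p6 from 250 bases before to 50 after the start of transcription, on both strands. An entry was found for 40 of the 48 genes, and 22 of them held at least 1 of 4 words. The YY1 word AAGATGGC stood in 8 of the 40 (20.0%), against 2.75% of all 32851 promoters and 3.75% of the 15641 promoters of other tested genes. All 8 were on the coding strand after the start, at positions 11 to 39, whereas 247 of 606 matches (40.8%) in other tested genes were. The word holds the letters ATG, and whether it covers the start codon of these genes was not tested. The sites are shown because the word lies on the coding strand after the start of transcription in all 8, with the word in capitals.
Ndufa3 (chr7:3617387-3617410, plus strand): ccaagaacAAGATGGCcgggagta
Ndufa9 (chr6:126849100-126849123, minus strand): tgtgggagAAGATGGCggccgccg
Ndufaf8 (chr11:120098936-120098959, plus strand): cagggcccAAGATGGCggcgccct
Ndufb8 (chr19:44555393-44555412, minus strand): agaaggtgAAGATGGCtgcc
Ndufc1 (chr3:51408918-51408941, minus strand): tgcggaacAAGATGGCgccgtccg
Ndufs4 (chr13:114388045-114388067, minus strand): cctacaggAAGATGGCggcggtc
Ndufs6 (chr13:73328434-73328457, minus strand): tcaccggcAAGATGGCggcggtgc
Ndufs7 (chr10:80249465-80249488, plus strand): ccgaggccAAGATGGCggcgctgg

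Calls among holders and non-holders of the word were as follows. Of the 8 genes with the YY1 word 5 fell in the authors' deposited table, and of the 32 without it 18 fell. The short NRF1 word TGCGCA, which is its own reverse complement, stood in 11 of 40 promoters (27.5%), against 7.76% of all promoters and 12.3% of those of other tested genes, and 5 of the 11 genes fell. The ETS word CCGGAAG, read by the Gabpa protein, stood in 6 (15.0%), against 8.86% and 14.8%, and 4 of the 6 genes fell. The full NRF1 site, a palindrome that can overlap the short word, stood in 3 promoters, those of Ndufa11, Ndufaf4 and Ndufaf5 (7.5%, against 0.971% and 1.74%), and 1 of the 3 genes fell. These are matches of letters, not measured binding. The median GC content was 59.3% for the complex I promoters and 60.3% for those of other tested genes. The promoters of Ndufa11 and Ndufb6, both called lower, are shown from 250 bases before to 30 after the start. Capitals mark the full NRF1 site in Ndufa11, and in Ndufb6 the ETS word on the opposite strand followed by the short NRF1 word.
Ndufa11 (chr17:56717512-56717791, plus strand): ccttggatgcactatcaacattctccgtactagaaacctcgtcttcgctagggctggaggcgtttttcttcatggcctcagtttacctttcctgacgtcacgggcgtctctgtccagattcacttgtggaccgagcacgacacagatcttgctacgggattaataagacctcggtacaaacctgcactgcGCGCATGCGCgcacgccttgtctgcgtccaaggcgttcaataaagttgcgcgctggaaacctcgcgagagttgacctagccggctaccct
Ndufb6 (chr4:40279392-40279671, minus strand): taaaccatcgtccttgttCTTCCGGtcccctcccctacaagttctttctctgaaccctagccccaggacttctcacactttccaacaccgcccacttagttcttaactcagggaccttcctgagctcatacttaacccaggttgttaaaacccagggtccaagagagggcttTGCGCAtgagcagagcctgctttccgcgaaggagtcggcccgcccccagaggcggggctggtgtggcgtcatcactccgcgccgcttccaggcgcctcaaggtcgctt

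The genes were scattered over the genome. Members lay on 17 chromosomes, with Ndufa1 and Ndufb11 on the X chromosome. Only Ndufc1 and Ndufb5 shared chromosome 3 with the targeted gene, at 44.8 and 63.5 Mb from H2bc21 (mm10), and both fell, to 63.0% and 54.6% of WT. A gene starting on the opposite strand within 1000 bases upstream was annotated for 14 of the 46 protein-coding members (30.4%), and for 2115 of 14963 tested protein-coding genes (14.1%).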

How the data were processed

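The deposited file is the authors' own comparison of 4 KO and 4 WT libraries, made with DESeq2 on mm10, per the submitters' processing notes; no version, aligner or counting setting was given in the sources used here. Libraries were made with a stranded mRNA kit, per the labels' protocols. The authors deposited a mean normalized count per gene (signal over all libraries), a log2 fold change with its SE, a Wald score, and a p-value and adjusted p-value. The Wald score equals the log2 fold change over its SE within 2.86e-07. The total depth of each library is unknown; mean normalized counts sum to 39600000.0, and 8135 rows, none above 2.99 counts, have a p but no adjusted p. The signs of the log2 fold changes were turned so that they read KO over WT, from the targeted gene. The deposited p-values measure the spread between these libraries, which the labels call biological replicates.

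Names, positions, principal transcripts and exon lengths came from GENCODE M21 (GRCm38, the same assembly as mm10), where 26032 rows matched, and promoters from RefSeq. Copies were found with blastn 2.17.0. Tables were handled in Python 3.11.15 with pandas 2.3.3, scipy 1.17.1 and statsmodels 0.14.6 (trend by lowess, span 0.3). Intervals are 95% normal intervals from the SE. The recalculation of adjusted p was tested on simulated data. Core and assembly genes were named, except 1 core gene that enters the counts and medians and is not reported here by itself; of accessory genes, the called ones, with full values for the smallest adjusted p, the largest changes, the highest counts and any against the common direction. Members and lists were chosen with earlier results of these data known. Of the listed assembly proteins, Coa1 was not analysed here. Alternatives were other null distributions, thresholds, gene sets for the adjustment, memberships, centring, and a length and GC correction.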

Additional observations from a re-analysis of the deposited data

How the results depend on the processing

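No paired analysis was possible because the table holds no value for a single library, and for the same reason no library could be left out in turn. Read against Student's t with 6 degrees of freedom (8 libraries in 2 groups), the falls in KO numbered 0 for all 48 complex I genes, 0 for core, 0 for accessory and 0 for assembly genes (smallest adjusted p 0.0661), with 1 call in the whole table. An empirical null with a scale of 1.96, from the spread of all Wald scores, was tried too: they were again 0 in each of the 4 groups (smallest adjusted p 0.160), with 70 calls in the whole table, 24 lower and 46 higher in KO. The cause was not tested for the empirical null; the t has wider tails than the normal by construction. At an adjusted p under 0.01, 14 complex I genes fell, 3 core, 10 accessory and 1 assembly. Adjusting over all genes with a p gave 23 falls in complex I, and adjusting over genes with at least 100 counts gave 28. Leaving out members with a named pseudogene row gave 25. Leaving out Ndufa4 and Ndufa4l2 or the pseudogene members gave 27, a number that could not drop because none of these genes was called. The alternatives without any near-identical copy (21 falls) and with protein-coding members only were chosen after seeing the data. The number of genes higher in KO was 0 under each of these alternatives. The complex I median was -0.50 after centring on all tested genes and -0.41 after the length and GC correction; no median of a class changed its sign. Without counts per library, depth limits could not be worked out.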
